A study of Mus musculus with 32 samples.

Results

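Glycolysis and the transcriptional response to low oxygen were followed through 37 genes in a count table of 11818 genes. The genes were chosen by name and pathway, with earlier results of these data known, by a rule that sets no limit on their measured values. All 37 were in the table. They were 16 genes of glycolytic enzymes, 5 genes of glucose and lactate transport and of the control of pyruvate and fructose phosphate, 15 targets of the transcription factor HIF-1 that have no step in glycolysis, and Hif1a, which encodes the oxygen-regulated subunit of HIF-1. RNA was from lung organoids, grown for 72 h in Matrigel from Epcam+ lung epithelial cells of C57BL/6J mice aged 8 to 14 weeks, mixed with mouse lung fibroblasts of the CCL206 line, kept from dividing by mitomycin C. The organoids were treated with vehicle, with 10 µg/mL recombinant human osteoglycin (OGN, a small leucine-rich proteoglycan of the extracellular matrix), or with 30 µg/mL soluble factors (SFs) or 1000000000 particles/mL extracellular vesicles (EVs) secreted by MRC5 human fetal lung fibroblasts. They were then taken apart with Epcam microbeads into Epcam+ cells and fibroblasts. Each of the 8 groups (2 populations by 4 treatments) had 4 libraries, 1 from the cells of each of 4 mice, while the fibroblasts of all libraries came from 1 line. All groups, vehicle included, were co-cultures, so each population was measured after growth beside the other.

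Glycolysis splits glucose into pyruvate in the cytosol, and lactate dehydrogenase turns pyruvate into lactate when it is not burnt in mitochondria. HIF-1 is a pair of an alpha subunit, which is hydroxylated by oxygen-dependent prolyl hydroxylases and then degraded, and a stable beta subunit. When oxygen is low, or when the alpha subunit is made faster than it is removed, HIF-1 binds short DNA elements with the core RCGTG (R for A or G) and raises the transcription of glycolytic enzymes, of glucose and lactate carriers, and of genes for blood vessel growth, mitophagy and collagen hydroxylation. Alveolar type 2 (AT2) cells are the epithelial progenitors of the lung alveolus.

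Total counts per library were between 1805914 and 17675454, and the lowest count of any of the 37 genes in any library was 10. Expression is given as CPM, the count of a gene scaled to a fixed total per library after TMM normalization. The labelled populations were checked by marker genes. The summed level of 10 AT2 markers was between 9552 and 15999.5 CPM in Epcam+ libraries and between 1597 and 4841 CPM in fibroblast libraries, and that of 9 fibroblast markers was between 2052 and 3745 CPM in Epcam+ libraries and between 7834 and 13270.0 CPM in fibroblast libraries. Epcam itself was at 227 to 357 CPM in Epcam+ libraries and 3.05 to 22.7 CPM in fibroblast libraries. Single markers were compared between vehicle fibroblasts and vehicle Epcam+ cells at an edgeR adjusted p under 0.05. Of the 10 AT2 markers, 8 were lower in fibroblasts, and of the 9 fibroblast markers, 8 were higher and 1 was lower. Of all genes, 35.8% were higher and 35.6% lower. Whether markers of the other population were carried over or expressed by the cells themselves was not tested. Of 8 immune and 6 endothelial markers, only Cd68 and Vwf were in the table, both at or under 11 CPM in every library. As every gene of the table had at least 1 count in every library, a marker missing from it does not show that such cells were lacking. In EV-treated fibroblasts, the log2 level of a gene relative to the mean of the vehicle fibroblast libraries fell with the length of its transcript, with Spearman correlations across genes of -0.289, -0.584, -0.364 and -0.623 in mice 1 to 4 (genes are not independent replicates). The correlation was between -0.244 (SFs, mouse 1) and 0.19 in the other fibroblast libraries. In Epcam+ libraries, set against their own vehicle mean, it was between -0.288, in the OGN library of mouse 4, and 0.33, so that the trend of mouse 1 with EVs was close to that of some other libraries. As these are bulk samples, fewer cells of a type and less RNA per cell cannot be told apart.

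Sequence upstream of listed starts was given by RefSeq (GRCm38.p6) for 35 of the 37 genes, all but Bnip3l and Ndrg1. A listed start is not always the outer end of the gene. The window of Hif1a (73907617-73907866) lies inside the gene, which begins at 73901324, and that of Pdk1 ends at 71873223, past the gene start at 71873215. Windows of 250 bases that end at the base before a listed start were searched for the letters ACGTG and GCGTG on both strands. A CACGTG was counted on each strand. At least 1 of these was in a window of 32 of the 35 genes (91.4%), against 63.1% of the 9166 genes of the table with a window. ACGTG was found in 62.9% of the 35 genes and 25.5% of those 9166, and GCGTG in 68.6% and 51.7%. The 35 genes had 52 windows, as some have several starts, and the 9166 genes had 11756. Counted by window, 76.9% of those of the 35 genes held either motif, against 56.7%. GC content, taken in the first listed window of each gene, had a median of 64.0% over the 35 genes and 60.4% over those of the table. By gene, 13 of 16 glycolytic enzymes (81.2%) and 13 of 13 non-glycolytic HIF-1 targets held at least 1 of the motifs, but by window the shares were 73.1% and 77.8%. Median GC content of the first listed windows was 57.4% and 69.6%. The windows of Gpi1, Tpi1 and Eno2 had neither. A match is a description of the letters and does not show that HIF-1 binds there. The windows below are of the 6 genes with the smallest p values with OGN, by rank over both populations, among those called in both (17 genes), and are shown as examples of promoters of genes that rose with OGN in both. They read 5′ to 3′ on the strand of the gene, and capitals mark ACGTG and GCGTG or, on the other strand, CACGT and CACGC.
Slc2a1, chr4:119108495-119108744, plus strand: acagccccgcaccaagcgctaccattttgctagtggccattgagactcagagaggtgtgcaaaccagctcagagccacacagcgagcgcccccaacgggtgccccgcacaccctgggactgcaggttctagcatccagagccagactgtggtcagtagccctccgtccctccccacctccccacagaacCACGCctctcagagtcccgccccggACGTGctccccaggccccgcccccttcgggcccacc
Pgk1, chrX:106186850-106187099, plus strand: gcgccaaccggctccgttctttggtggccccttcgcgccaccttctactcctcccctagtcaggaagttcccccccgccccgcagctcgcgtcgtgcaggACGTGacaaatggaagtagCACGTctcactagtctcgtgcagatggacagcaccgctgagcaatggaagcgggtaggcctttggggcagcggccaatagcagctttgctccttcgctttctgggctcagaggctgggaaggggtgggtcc
Bnip3, chr7:138909507-138909756, minus strand: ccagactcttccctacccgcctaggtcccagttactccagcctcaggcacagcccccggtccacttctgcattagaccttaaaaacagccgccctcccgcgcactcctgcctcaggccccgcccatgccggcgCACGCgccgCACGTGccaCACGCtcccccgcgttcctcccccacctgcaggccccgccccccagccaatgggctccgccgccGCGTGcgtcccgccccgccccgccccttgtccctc
Pdk1, chr2:71872974-71873223, plus strand: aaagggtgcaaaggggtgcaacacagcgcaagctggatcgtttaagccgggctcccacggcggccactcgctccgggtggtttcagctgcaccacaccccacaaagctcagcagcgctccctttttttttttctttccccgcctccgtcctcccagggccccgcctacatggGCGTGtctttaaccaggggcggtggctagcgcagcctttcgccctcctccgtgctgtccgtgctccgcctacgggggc
Ero1a, chr14:45318573-45318822, minus strand: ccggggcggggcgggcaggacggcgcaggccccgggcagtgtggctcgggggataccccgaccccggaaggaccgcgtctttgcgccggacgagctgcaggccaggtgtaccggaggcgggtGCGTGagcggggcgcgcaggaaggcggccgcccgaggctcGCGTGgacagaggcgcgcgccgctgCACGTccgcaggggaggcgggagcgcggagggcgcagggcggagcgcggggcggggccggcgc
P4ha2, chr11:54100674-54100923, plus strand: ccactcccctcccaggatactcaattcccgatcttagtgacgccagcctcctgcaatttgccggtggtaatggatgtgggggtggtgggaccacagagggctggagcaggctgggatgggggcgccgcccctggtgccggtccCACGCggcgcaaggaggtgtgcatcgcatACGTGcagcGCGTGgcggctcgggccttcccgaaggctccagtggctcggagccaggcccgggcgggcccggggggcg

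The windows of Slc2a1, Ero1a and P4ha2 held both kinds of match. That of Pgk1 held 2 ACGTG, at 150 bases before the listed start and, on the other strand, at 131 bases, and no GCGTG. That of Pdk1 held 1 GCGTG, at 78 bases before its listed start. The Bnip3 window held a palindromic CACGTG at 107 bases and 3 GCGTG. In Ldha, which is not printed, 1 window held 5 ACGTG matches over both strands, and that of Hif1a held 3.

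To analyze the response to OGN, each population was compared with its vehicle libraries within mice, with edgeR's quasi-likelihood F test over all genes and Benjamini-Hochberg adjustment. Genes are called when the adjusted p is under 0.05. With OGN, 19 of the 37 genes were called in Epcam+ cells and 28 of 37 in CCL206 fibroblasts, and each of these calls was an increase. Of all genes tested, 2.7% were called in either direction in Epcam+ cells and 1.48% as higher, against 4.56% and 2.7% in fibroblasts. The log2 fold change was above 0 for 35 of 37 genes in Epcam+ cells and 36 of 37 in fibroblasts, against 49.4% and 48% of all genes. All 4 OGN libraries lay above all 4 vehicle libraries for 21 of 37 genes in Epcam+ cells (3.2% of all genes) and for 29 of 37 in fibroblasts (8.64% of all genes). 17 genes were called in both populations, against 0.956% of the 11616 genes tested in both. The study had reported glycolysis and HIF-1 signaling among the pathways upregulated by OGN in both populations of these libraries. As the 37 genes were chosen with earlier results of these data known, their excess of calls is not independent support for that report.

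**Figure D1:**
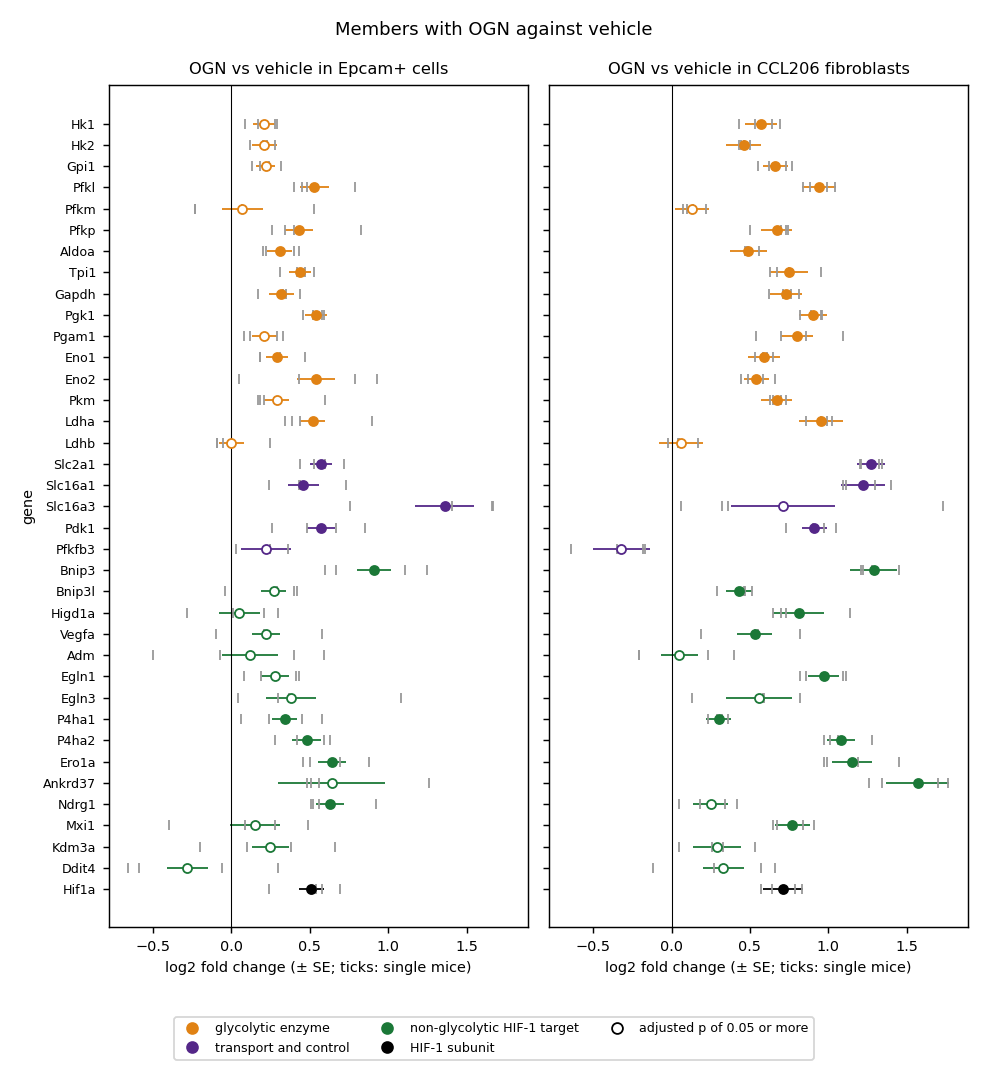
Log2 fold change of each of the 37 genes with OGN against vehicle in Epcam+ cells (left) and CCL206 fibroblasts (right), with bars for the SE, small ticks for single mice, colours for the gene class, and filled points for genes called at an adjusted p under 0.05. Nearly all points lie right of 0, with 19 filled at left and 28 at right, and the fibroblast values of 31 of the 37 genes are larger.

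Calls were found in every class. Of the 16 glycolytic enzymes, 9 rose in the epithelial and 14 in the fibroblast libraries, and of the 5 transport and control genes, 4 and 3 rose. Of the 15 non-glycolytic HIF-1 targets, 5 rose in the former and 10 in the latter, and Hif1a rose in both. With OGN and vehicle libraries alone in the model, Aldoa, Gapdh, Eno1 and P4ha1 did not pass in Epcam+ cells, and without the EV-treated libraries Eno1 did not. Together the 16 enzyme genes took between 1.2% and 1.31% of all counts in vehicle Epcam+ libraries and between 1.54% and 1.69% with OGN. In fibroblasts their share went from 0.96 to 1.01% to 1.5 to 1.58%. The 15 HIF-1 targets together took 0.0923 to 0.101% of counts in vehicle Epcam+ libraries, 0.11 to 0.132% with OGN, 0.153 to 0.162% in vehicle fibroblasts and 0.221 to 0.26% in OGN fibroblasts. For both classes and in both populations, the OGN libraries were above all vehicle libraries. Marker sums of the other population overlapped between vehicle and OGN. The fibroblast marker sum was 2239 to 3111 CPM in vehicle and 2052 to 2588 CPM in OGN-treated Epcam+ libraries, and the AT2 marker sum was 1876 to 4841 CPM in vehicle and 2140 to 4272 CPM in OGN-treated fibroblast libraries. Of the 9 fibroblast markers, Dcn was called higher and Col6a1 and Col6a2 lower in OGN-treated Epcam+ cells, and of the 10 AT2 markers, Sftpa1 and Sftpd were called higher in OGN-treated fibroblasts. In OGN-treated Epcam+ cells, Sftpa1 and Sftpd were also called higher, with log2 fold changes of 0.42 ± 0.09 and 0.45 ± 0.09. Hopx, another AT2 marker, was called lower there, at -0.64 ± 0.13.

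**Figure D2:**
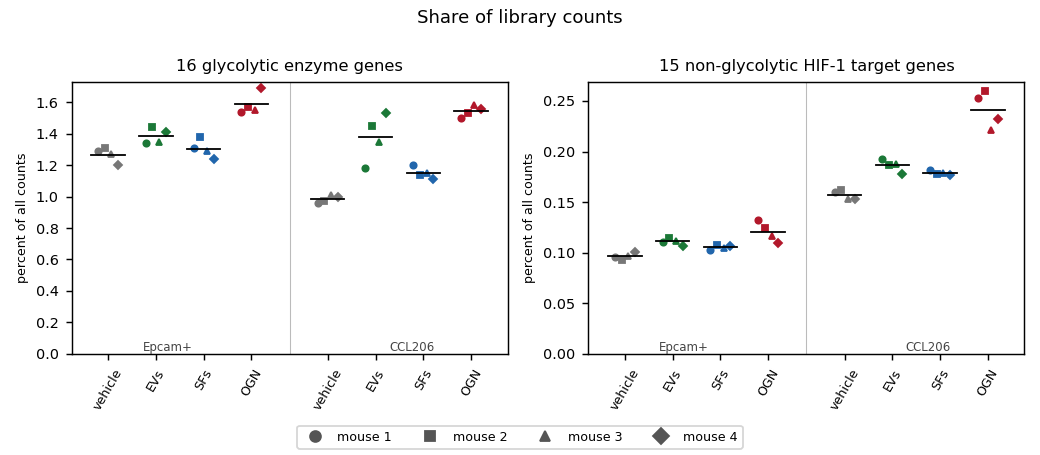
Percent of all counts of a library taken by the 16 glycolytic enzyme genes (left) and the 15 non-glycolytic HIF-1 target genes (right), with 1 point per library, a symbol per mouse and a line at the mean of the 4 libraries. In both populations the OGN libraries lie above all vehicle and SF libraries, and the EV-treated fibroblast libraries spread over 1.18 to 1.53% for the enzymes.

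In the upper part of glycolysis, hexokinases (Hk1, Hk2) trap glucose in the cell, and glucose phosphate isomerase (Gpi1) and the 3 phosphofructokinases (Pfkl, Pfkm, Pfkp) make fructose bisphosphate. Aldolase (Aldoa) cuts fructose bisphosphate into trioses, which triose phosphate isomerase (Tpi1) interconverts. Values are given in the order of mice 1 to 4. Pfkl in Epcam+ cells was at 253, 251, 257 and 246 CPM with vehicle and 354, 344, 341 and 424 CPM with OGN, and in fibroblasts at 238, 238, 243 and 237 CPM with vehicle and 488, 475, 435 and 435 CPM with OGN. The groups did not overlap in either population, and log2 fold changes (± SE) were 0.53 ± 0.09 (edgeR adjusted p = 0.000761) in Epcam+ cells and 0.94 ± 0.11 (edgeR adjusted p = 5.5e-05) in fibroblasts. For Pfkp, Epcam+ libraries were at 97.7, 95.5, 86.1 and 63.3 CPM with vehicle and 117, 121, 114 and 113 CPM with OGN. Its fibroblast libraries were at 108, 106, 100.2 and 110.1 CPM with vehicle and 153, 173, 168 and 183 CPM with OGN. Pfkp thus rose by 0.43 ± 0.09 (edgeR adjusted p = 0.00707) and 0.67 ± 0.10 (edgeR adjusted p = 0.000388) on the log2 scale, with its lowest vehicle value in the Epcam+ cells of mouse 4, and the Epcam+ call was lost without mouse 3 or 4. Pfkm, the muscle isoform, was not called in either population, with log2 fold changes of 0.07 ± 0.13 and 0.13 ± 0.11.

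Aldoa in Epcam+ cells was at 1192, 1154, 1105 and 1145 CPM with vehicle and 1369, 1344, 1492 and 1509 CPM with OGN. In fibroblasts, Aldoa was at 1175, 1182, 1231 and 1255 CPM with vehicle and 1640.4, 1739.7, 1723 and 1734 CPM with OGN. All OGN libraries of Aldoa were above those of vehicle, with log2 fold changes of 0.31 ± 0.08 (edgeR adjusted p = 0.0214) and 0.49 ± 0.12 (edgeR adjusted p = 0.0226). Tpi1 was at 623, 668, 647 and 654 CPM with vehicle and 865, 896, 801 and 948 CPM with OGN in Epcam+ cells. In fibroblasts, Tpi1 was at 595, 678, 696 and 719.7 CPM with vehicle and 1146, 1137, 1078 and 1146 CPM with OGN. The groups of Tpi1 were apart in both populations, and it rose by 0.44 ± 0.07 (edgeR adjusted p = 0.000615) in Epcam+ cells and 0.75 ± 0.12 (edgeR adjusted p = 0.00117) in fibroblasts. Aldoa lost its call in Epcam+ cells without mouse 1, 3 or 4, and in fibroblasts without mouse 2 or 3.

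Hexokinases and Gpi1 were called in fibroblasts. Hk1 was at 241, 242, 250.3 and 250.4 CPM with vehicle and 389.6, 378, 338 and 362 CPM with OGN in fibroblasts, a log2 fold change of 0.57 ± 0.10 (edgeR adjusted p = 0.00177), and no library overlapped. In Epcam+ cells it was at 229, 232, 201 and 219 CPM with vehicle and 258, 247, 247 and 267 CPM with OGN, with 0.21 ± 0.07 (edgeR adjusted p = 0.129). Hk1 values with OGN were thus above those with vehicle in both populations, although the difference in Epcam+ cells did not pass the test. Hk2 was at 172, 167, 122 and 128 CPM with vehicle and 244, 228, 164 and 175 CPM with OGN in fibroblasts, where the groups overlapped and mice 1 and 2 were above mice 3 and 4 with either treatment, and within mice it rose by 0.46 ± 0.11 (edgeR adjusted p = 0.0253). In Epcam+ cells, Hk2 was at 193, 184, 181 and 183 CPM with vehicle and 236, 200.3, 208 and 215 CPM with OGN, with 0.21 ± 0.08 (edgeR adjusted p = 0.202). The fibroblast call of Hk2 was lost without mouse 1, 2 or 4 and without mouse in the model, and that of Hk1 without mouse 2. For Gpi1, fibroblast libraries were at 736, 728, 785 and 803 CPM with vehicle and 1257, 1207, 1149 and 1237 CPM with OGN, a rise of 0.66 ± 0.08 (edgeR adjusted p = 0.000104). Gpi1 in Epcam+ cells was at 514, 527, 483 and 509 CPM with vehicle and 608, 598, 603 and 558 CPM with OGN, with 0.22 ± 0.06 (edgeR adjusted p = 0.0738), and the OGN libraries were again all above vehicle.

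In the lower part of glycolysis, glyceraldehyde phosphate dehydrogenase (Gapdh), phosphoglycerate kinase (Pgk1), phosphoglycerate mutase (Pgam1), enolase (Eno1, Eno2) and pyruvate kinase (Pkm) carry trioses to pyruvate and yield ATP. Pgk1 had the smallest adjusted p of the enzymes in both populations. It was at 668, 649.6, 649 and 650.2 CPM with vehicle and 960.0, 971, 893 and 982 CPM with OGN in Epcam+ cells. In fibroblasts, Pgk1 was at 755, 807, 835 and 835 CPM with vehicle and 1470.2, 1553, 1471 and 1553 CPM with OGN. The libraries of each group lay close together and far from the other, with log2 fold changes of 0.54 ± 0.07 (edgeR adjusted p = 1.87e-05) and 0.90 ± 0.09 (edgeR adjusted p = 1.9e-05). Gapdh, a gene often used as a constant reference, was at 2476, 2294, 2209.6 and 2246 CPM with vehicle and 2778, 2886, 2989 and 2853 CPM with OGN in Epcam+ cells. Its fibroblast libraries were at 1322, 1351, 1374 and 1331 CPM with vehicle and 2036, 2215, 2335 and 2335 CPM with OGN. Gapdh rose in both, without overlap, by 0.32 ± 0.08 (edgeR adjusted p = 0.0212) and 0.73 ± 0.10 (edgeR adjusted p = 0.000405), and the Epcam+ call was lost without mouse 1, 2 or 3.

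Eno1 was at 1095, 1149, 1051 and 929 CPM with vehicle and 1241, 1303, 1301 and 1289 CPM with OGN in Epcam+ cells. In fibroblasts, Eno1 was at 620.0, 689, 678 and 706 CPM with vehicle and 975, 998, 1036 and 1053 CPM with OGN. It rose by 0.29 ± 0.07 (edgeR adjusted p = 0.0264) and 0.59 ± 0.10 (edgeR adjusted p = 0.00108), and leaving out any 1 of the 4 mice ended the Epcam+ call, as did the model without mouse. Eno2, known as the neuronal enolase, was at 44.8, 40.8, 56.6 and 78.4 CPM with vehicle and 85.4, 70.6, 76.4 and 81.2 CPM with OGN in Epcam+ cells. Here the vehicle library of mouse 4 was within the OGN range, and within mice the log2 fold change was 0.54 ± 0.12 (edgeR adjusted p = 0.0154), which did not pass without mouse 1, 2 or 3 or without mouse in the model. In fibroblasts, Eno2 was at 267, 279, 291 and 307 CPM with vehicle and 398, 439, 408 and 415 CPM with OGN, with groups apart and a rise of 0.54 ± 0.08 (edgeR adjusted p = 0.000371). Reads of Eno1 and of its near-identical copy Eno1b, as well as those of enzyme genes with processed pseudogenes such as Gapdh, can be split between copies in ways that are uncertain here, as the treatment of reads with several matches is not given in the sources used here.

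Pgam1 was at 185, 218, 219 and 199.7 CPM with vehicle and 395, 355, 319 and 363 CPM with OGN in fibroblasts. It rose there by 0.80 ± 0.10 (edgeR adjusted p = 0.000106), with no overlap. Epcam+ libraries of Pgam1 were at 175, 216, 174 and 169 CPM with vehicle and 214, 228, 219 and 184 CPM with OGN, where groups overlapped through the vehicle library of mouse 2, with 0.21 ± 0.08 (edgeR adjusted p = 0.198). Pkm, whose products are the pyruvate kinases M1 and M2, was at 1810.2, 1855, 1929.6 and 1892 CPM with vehicle and 3004, 2869, 3029 and 3064 CPM with OGN in fibroblasts, a rise of 0.67 ± 0.10 (edgeR adjusted p = 0.000601). In Epcam+ cells, Pkm was at 2792, 2964, 2888 and 2658 CPM with vehicle and 3228, 3329, 3276 and 4019 CPM with OGN. The library of mouse 4 with OGN was the highest, the groups did not overlap, and the difference of 0.29 ± 0.08 (edgeR adjusted p = 0.0697) did not pass the test.

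Lactate dehydrogenase is built from A and B chains, encoded by Ldha and Ldhb. Ldha was at 2209, 2351, 2225 and 1953 CPM with vehicle and 2896, 3199, 2823 and 3657 CPM with OGN in Epcam+ cells. In fibroblasts, Ldha was at 818, 831, 849.5 and 797 CPM with vehicle and 1576, 1509.6, 1727 and 1579 CPM with OGN. OGN libraries were above vehicle in all mice and in both populations, by 0.52 ± 0.08 (edgeR adjusted p = 0.000534) and 0.95 ± 0.14 (edgeR adjusted p = 0.000485). Ldhb was between 120.0 and 177 CPM with vehicle and between 132.6 and 166 CPM with OGN in Epcam+ cells, and its log2 fold change in fibroblasts was 0.06 ± 0.14, neither of which passed the test.

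Genes that move sugar and lactate across the plasma membrane were among those with the largest fold changes. Slc2a1 encodes the glucose transporter GLUT1. It was at 179, 174, 164 and 150.1 CPM with vehicle and 259, 236, 249 and 248 CPM with OGN in Epcam+ cells. In fibroblasts, Slc2a1 was at 189, 197, 183 and 179 CPM with vehicle and 435, 456, 458 and 455 CPM with OGN. Its rise was 1.49-fold in Epcam+ cells, or 0.57 ± 0.07 (edgeR adjusted p = 2.02e-05) on the log2 scale, and 2.41-fold in fibroblasts, or 1.27 ± 0.09 (edgeR adjusted p = 4.28e-07). Slc16a1 encodes the lactate and pyruvate carrier MCT1, and was at 113, 116, 121 and 109 CPM with vehicle and 153, 157, 143 and 181 CPM with OGN in Epcam+ cells. Fibroblast libraries of Slc16a1 were at 77.0, 65.0, 71.8 and 78.9 CPM with vehicle and 167, 172, 177 and 169 CPM with OGN. No groups overlapped, and it rose by 0.46 ± 0.10 (edgeR adjusted p = 0.00866) and 1.22 ± 0.14 (edgeR adjusted p = 3.46e-05), the former being lost without mouse 1.

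Slc16a3, for the lactate exporter MCT4, was at 21.5, 15.4, 13.3 and 6.42 CPM with vehicle and 36.6, 49.2, 43.2 and 17.5 CPM with OGN in Epcam+ cells. Mouse 4 was lowest in both groups and its OGN library lay within the vehicle range, and each mouse was higher with OGN, by 1.36 ± 0.19 (edgeR adjusted p = 0.000124). In fibroblasts it was at 4.02, 5.14, 1.68 and 2.77 CPM with vehicle and 5.21, 6.46, 6.16 and 2.89 CPM with OGN, overlapping, and the difference of 0.71 ± 0.33 did not pass. Pdk1, whose kinase holds pyruvate back from the mitochondrial pyruvate dehydrogenase, was at 75.7, 69.1, 78.7 and 70.9 CPM with vehicle and 121, 125, 93.9 and 99.0 CPM with OGN in Epcam+ cells. In fibroblasts, Pdk1 was at 147, 147, 139 and 129 CPM with vehicle and 274, 305, 231 and 253 CPM with OGN. It rose by 0.57 ± 0.09 (edgeR adjusted p = 0.000537) and 0.91 ± 0.08 (edgeR adjusted p = 5.52e-06), with groups apart. Pfkfb3, for an enzyme that sets the level of the phosphofructokinase activator fructose 2,6-bisphosphate, was not called. In fibroblasts all 4 OGN libraries of Pfkfb3, given here after their order was seen, at 20.9, 27.8, 28.1 and 30 CPM, lay below the vehicle libraries, at 32.5, 31.2, 32 and 38.3 CPM, an order seen for no other gene of the 37 with OGN (7.79% of all genes in fibroblasts), and the log2 fold change of -0.32 ± 0.18 (edgeR adjusted p = 0.433) did not pass.

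**Figure D3:**
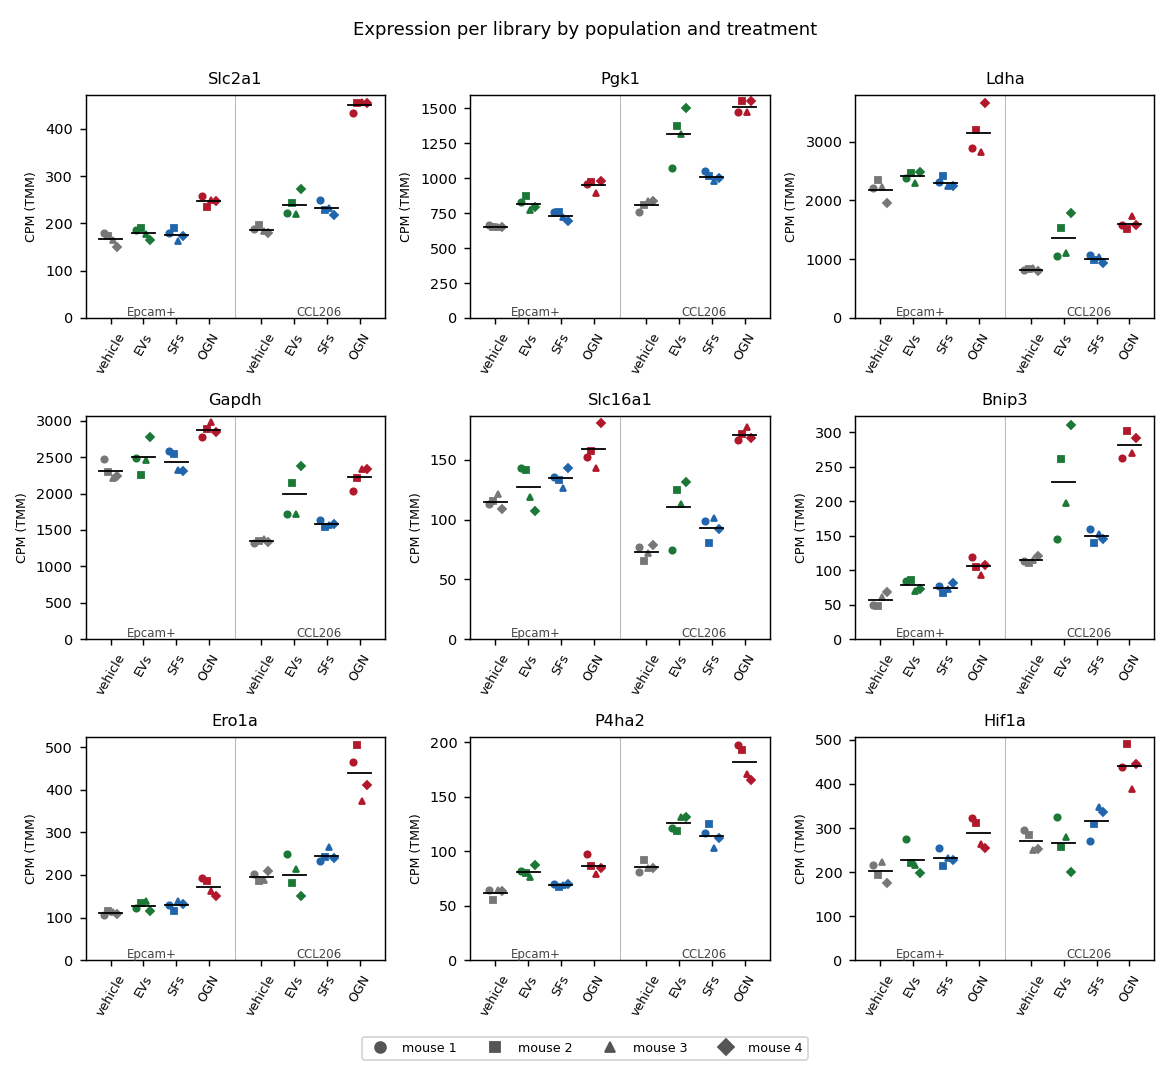
Expression (CPM) of 9 genes in each library of the 8 groups, Epcam+ at left and CCL206 fibroblasts at right of each panel, with a symbol per mouse, a colour per treatment and a line at the mean of 4 libraries. OGN libraries lie above the vehicle libraries in every panel, with Slc2a1 in fibroblasts moving from a range of 179 to 197 CPM to one of 435 to 458 CPM.

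Among the HIF-1 targets outside glycolysis, Bnip3 and Bnip3l mark mitochondria for removal by mitophagy, and Higd1a binds the respiratory chain. Bnip3 was at 49.8, 48.2, 61.3 and 67.5 CPM with vehicle and 119, 105, 92.7 and 108 CPM with OGN in Epcam+ cells. In fibroblasts, Bnip3 was at 113, 110.3, 115 and 119.7 CPM with vehicle and 262, 302, 269 and 292 CPM with OGN. It had the largest log2 fold change of the called HIF-1 targets in Epcam+ cells, 0.91 ± 0.11 (edgeR adjusted p = 1.77e-05), and rose by 1.29 ± 0.15 (edgeR adjusted p = 5.87e-05) in fibroblasts, with groups well apart. Bnip3l was at 166, 169.9, 180.4 and 176 CPM with vehicle and 229, 235, 220.4 and 251 CPM with OGN in fibroblasts, a rise of 0.43 ± 0.08 (edgeR adjusted p = 0.00295) that was lost without mouse 2. In Epcam+ cells, Bnip3l was at 95.6, 94.2, 96.9 and 102 CPM with vehicle and 128, 124, 118 and 99.3 CPM with OGN, with 0.27 ± 0.08 (edgeR adjusted p = 0.0917), and the OGN library of mouse 4 was within the vehicle range. Higd1a was at 30.1, 35.3, 29.9 and 31.5 CPM with vehicle and 66.9, 55.5, 48.6 and 52.4 CPM with OGN in fibroblasts, where it rose by 0.81 ± 0.16 (edgeR adjusted p = 0.00581). Epcam+ libraries of Higd1a were at 57.1, 59.2, 62.1 and 83.1 CPM with vehicle and 65.9, 73.0, 62.6 and 68.6 CPM with OGN, overlapping, with 0.05 ± 0.13.

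Vegfa and Adm encode secreted factors that act on blood vessels. Vegfa was at 235, 254, 198 and 189.9 CPM with vehicle and 414, 372, 226 and 275 CPM with OGN in fibroblasts. Both groups spread widely and overlapped, with mice 1 and 2 above mice 3 and 4, and within mice Vegfa rose by 0.53 ± 0.11 (edgeR adjusted p = 0.00817), a call that was lost without mouse 1 or 2 and without mouse in the model. In Epcam+ cells, Vegfa was at 108, 83.9, 95.0 and 111 CPM with vehicle and 125, 126, 110.1 and 104 CPM with OGN, with 0.22 ± 0.09 (edgeR adjusted p = 0.305). Adm did not pass in either population, with log2 fold changes of 0.12 ± 0.18 and 0.05 ± 0.12.

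Egln1 and Egln3 encode prolyl hydroxylases that mark HIF alpha subunits for decay, and are themselves HIF targets. Egln1 was at 54.7, 65.2, 62.2 and 57.4 CPM with vehicle and 118, 118, 110.1 and 123 CPM with OGN in fibroblasts, and rose there by 0.97 ± 0.10 (edgeR adjusted p = 1.29e-05) without overlap. In Epcam+ cells, Egln1 was at 68.5, 66.6, 71.4 and 73.1 CPM with vehicle and 92.7, 88.7, 81.3 and 77.2 CPM with OGN, with all OGN libraries above vehicle but 0.28 ± 0.09 (edgeR adjusted p = 0.112). Egln3 gave 0.38 ± 0.16 and 0.56 ± 0.21, and was not called.

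P4ha1 and P4ha2 encode the catalytic chains of collagen prolyl 4-hydroxylase, and Ero1a an oxidase that forms disulfides in the endoplasmic reticulum. P4ha1 was at 117, 120.3, 109 and 137 CPM with vehicle and 175, 164, 128 and 143 CPM with OGN in Epcam+ cells. In fibroblasts, P4ha1 was at 314, 331, 282 and 289 CPM with vehicle and 393, 389, 363 and 355 CPM with OGN. Its increases of 0.34 ± 0.08 (edgeR adjusted p = 0.0276) and 0.30 ± 0.08 (edgeR adjusted p = 0.0373) were small, the Epcam+ groups overlapped through the vehicle library of mouse 4, the fibroblast call was lost on leaving out any 1 of the mice and the Epcam+ call without mouse 1, 2 or 3, and both were lost without mouse in the model. P4ha2 was at 64.8, 55.6, 64.9 and 63.3 CPM with vehicle and 97.6, 86.3, 79.0 and 84.7 CPM with OGN in Epcam+ cells. Fibroblast libraries of P4ha2 were at 81.2, 92.2, 84.9 and 84.5 CPM with vehicle and 198, 193, 171 and 165 CPM with OGN. Both populations showed groups apart, with 0.48 ± 0.09 (edgeR adjusted p = 0.00151) and 1.08 ± 0.09 (edgeR adjusted p = 2.88e-06), the former lost without mouse 1. Ero1a was at 105, 115, 114 and 109 CPM with vehicle and 193, 186, 162 and 149.9 CPM with OGN in Epcam+ cells. In fibroblasts, Ero1a was at 203, 185, 188 and 209 CPM with vehicle and 465, 505, 373 and 411 CPM with OGN. The rise was 0.64 ± 0.09 (edgeR adjusted p = 4.98e-05) in Epcam+ cells and 1.15 ± 0.13 (edgeR adjusted p = 3.43e-05) in fibroblasts, and no library crossed to the other group.

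The remaining HIF-1 targets are Ankrd37, whose product is an ankyrin repeat protein, Ndrg1, a stress-response gene, Mxi1, an antagonist of MYC, Kdm3a, a histone H3K9 demethylase, and Ddit4, an inhibitor of mTORC1. Ankrd37 was low and had the largest log2 fold change of the 37 in fibroblasts, where it was at 3.17, 4.16, 2.33 and 3.56 CPM with vehicle and 11.3, 10.3, 8.13 and 9.43 CPM with OGN, with 1.57 ± 0.20 (edgeR adjusted p = 0.00016). In Epcam+ cells it was at 6.5, 5.79, 2.02 and 5.58 CPM with vehicle and 9.16, 8.67, 5.18 and 8.07 CPM with OGN, with 0.64 ± 0.34 (edgeR adjusted p = 0.441), where groups overlapped. Mxi1 was at 27.8, 31.0, 28.8 and 30.2 CPM with vehicle and 52.6, 48.8, 45.8 and 54.0 CPM with OGN in fibroblasts, a rise of 0.77 ± 0.11 (edgeR adjusted p = 0.000386). Epcam+ libraries of Mxi1 were at 22.3, 21.5, 23.3 and 23.2 CPM with vehicle and 27.1, 30.4, 24.7 and 17.5 CPM with OGN, with 0.15 ± 0.16. Ndrg1 was called in Epcam+ cells, where it was at 55.5, 51.5, 49.5 and 68.1 CPM with vehicle and 81.9, 73.6, 94.0 and 97.4 CPM with OGN, with 0.63 ± 0.09 (edgeR adjusted p = 0.000146) and groups apart. In fibroblasts, Ndrg1 was at 78.7, 85.4, 86.3 and 86.5 CPM with vehicle and 106, 108, 89.5 and 98.3 CPM with OGN, with 0.25 ± 0.11 (edgeR adjusted p = 0.303). Kdm3a and Ddit4 were not called, with log2 fold changes of 0.25 ± 0.12 and -0.28 ± 0.13 in Epcam+ cells and 0.29 ± 0.15 and 0.33 ± 0.13 in fibroblasts.

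The transcript of Hif1a itself was at 215, 193, 223 and 176 CPM with vehicle and 322, 311, 264 and 256 CPM with OGN in Epcam+ cells. In fibroblasts, Hif1a was at 295, 285, 249 and 251 CPM with vehicle and 438, 492, 389 and 447 CPM with OGN. It rose by 0.51 ± 0.08 (edgeR adjusted p = 0.000375) and 0.71 ± 0.13 (edgeR adjusted p = 0.003), the groups did not overlap, and the fibroblast call was lost without mouse 2. HIF-1 is controlled mainly through the stability of its protein, which was not measured.

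To compare both classes, the median log2 difference from vehicle over the 16 glycolytic enzymes was set against that over the 15 non-glycolytic HIF-1 targets. In the fit, the medians were 0.30 and 0.28 in Epcam+ cells and 0.67 and 0.56 in fibroblasts, beside -0.01 for all genes tested in fibroblasts. In single mice, the enzymes minus the HIF-1 targets gave -0.21, -0.21, 0.04 and 0.29 in Epcam+ cells (mean -0.02 ± 0.24, SD, n = 4 mice, the highest being mouse 4, whose OGN library had the correlation with length of -0.288) and -0.14, 0.1, -0.08 and 0.06 in fibroblasts (mean -0.02 ± 0.12). The sign differed between mice in both populations, so no difference between the class medians beyond the spread of mice was seen with OGN. All 4 OGN libraries were above all 4 vehicle libraries for 12 of 16 enzymes and 5 of 15 HIF-1 targets in Epcam+ cells (3.2% of all genes). In fibroblasts this held for 13 of 16 and 12 of 15 (8.64% of all genes). The enzymes took more of the counts, and the part of this was not tested. Members of a class varied far more than the class medians did. Log2 fold changes in fibroblasts ran from 0.06 to 0.95 among the enzymes and from 0.05 to 1.57 among the HIF-1 targets, and in Epcam+ cells those of the HIF-1 targets ran from -0.28 to 0.91. The 5 transport and control genes had medians of 0.57 and 0.91.

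**Figure D4:**
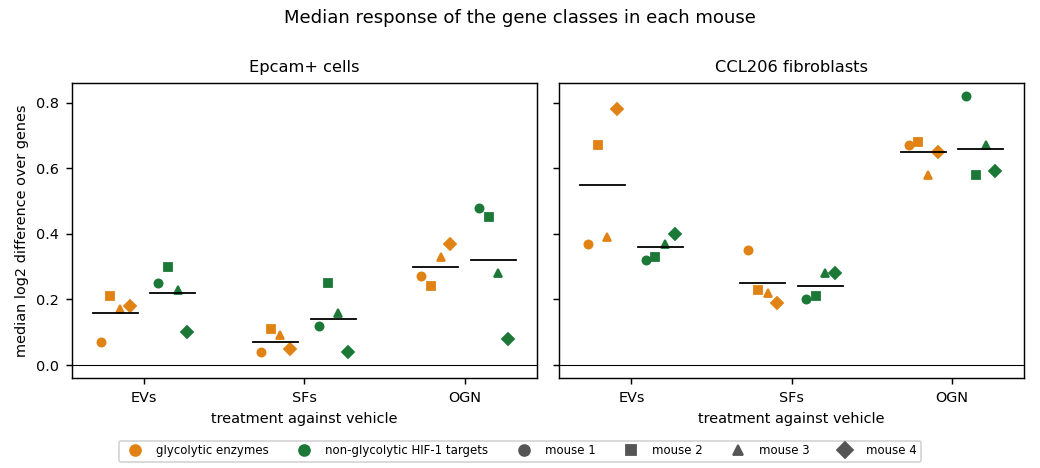
Median log2 difference from vehicle over the 16 glycolytic enzymes (orange) and the 15 non-glycolytic HIF-1 targets (green) in each mouse, for EVs, SFs and OGN in Epcam+ cells (left) and CCL206 fibroblasts (right), with a line at the mean of 4 mice. With OGN the classes differ by a mean of -0.02 in each population, and with EVs in fibroblasts the enzymes of mice 2 and 4 stand at 0.67 and 0.78, above the HIF-1 targets.

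Next, the OGN responses of both populations were compared. The log2 fold change was larger in fibroblasts for 31 of the 37 genes, against 50% of all genes tested in both. In a model of all 32 libraries, the response differed by population for 6 of 37 genes, each larger in fibroblasts, beside 0.551% of all genes in either direction and 0.407% larger in fibroblasts. These were Slc2a1, with a difference of 0.69 ± 0.11 (edgeR adjusted p = 0.000838), Egln1, with 0.68 ± 0.13 (edgeR adjusted p = 0.00512), P4ha2, with 0.60 ± 0.12 (edgeR adjusted p = 0.0102), Slc16a1, with 0.76 ± 0.17 (edgeR adjusted p = 0.0322), Pgam1, with 0.58 ± 0.13 (edgeR adjusted p = 0.0262), and Gpi1, with 0.44 ± 0.10 (edgeR adjusted p = 0.0317). Leaving out mouse 3 brought this to 0, mouse 2 to 2 and mouse 1 or mouse 4 to 3, and it was 12 when the EV-treated libraries were left out of the model. Slc16a3 and Ndrg1, called only in Epcam+ cells, had differences of -0.65 ± 0.38 (edgeR adjusted p = 0.868) and -0.39 ± 0.14 (edgeR adjusted p = 0.438), and were not shown to differ between populations.

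Shares of isoenzymes within a family were computed from CPM per kilobase of transcript. In vehicle fibroblasts, Ldhb made up 20.0% ± 1.23 (SD, n = 4) of Ldha and Ldhb together, and 11.8% ± 0.781 with OGN. Pfkm went from 19.8% ± 0.861 to 12.9% ± 0.262 of the 3 phosphofructokinases, and P4ha2 from 27.2% ± 1.31 to 39.0% ± 0.929 of both collagen prolyl hydroxylase chains. In each of these, the ranges of 4 libraries did not overlap in fibroblasts. Pfkl also lay above its vehicle range there, at 62.4 to 67.0% against 55.6 to 57.4%. Shares of Egln1 with Egln3 and of Slc16a1 with Slc16a3 overlapped. With EVs in fibroblasts, Eno2 (18.5 to 22.5%) and Pfkp (12.8 to 20.1%) lay below their vehicle ranges (24.9 to 26.3% and 22.5 to 24.9%). How often shares separate in other gene families was not tested. With SFs in fibroblasts, P4ha2 (31.3 to 34.1%) also lay above its vehicle range (25.5 to 28.5%). Ldhb with SFs (16.9 to 18.0%) lay below its vehicle range (18.2 to 21.0%), while Pfkm overlapped. In Epcam+ cells, Ldhb was at 6.47% ± 1.5 with vehicle and 4.54% ± 0.0953 with OGN, without overlap, while P4ha2 was at 40.6% ± 3.13 and 43.1% ± 1.71 and overlapped. Pfkm there was at 7.95% ± 0.752 with vehicle and 5.93% ± 1.41 with OGN, and overlapped too. Hk1 was at 75.3% ± 3.69 and 76.9% ± 2.42 of the hexokinases in fibroblasts, and Eno2 at 25.8% ± 0.621 and 25.1% ± 0.993 of Eno1 and Eno2 together, with overlapping ranges.

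**Figure D5:**
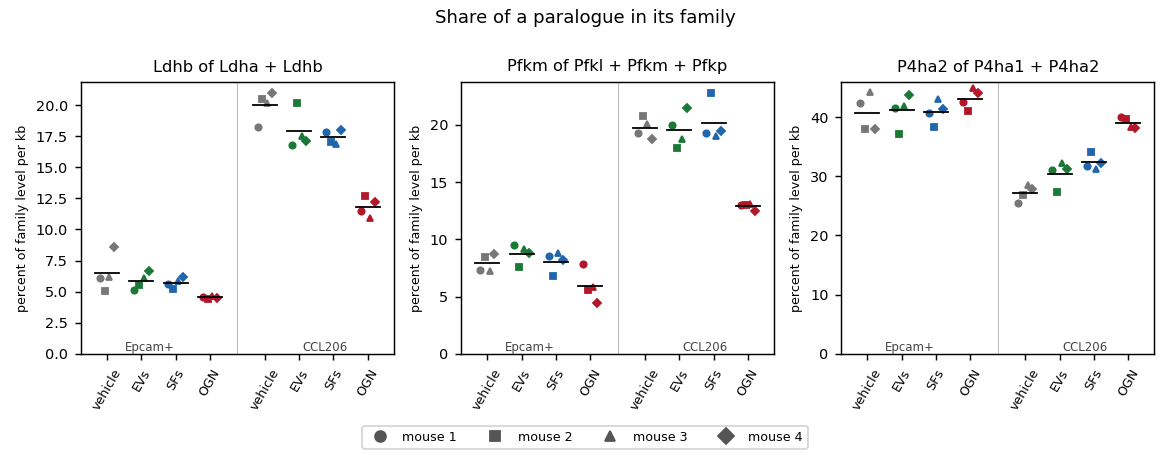
Share of Ldhb, Pfkm and P4ha2 in the summed level per kilobase of its gene family, in each library of the 8 groups, with a symbol per mouse and a line at the mean of 4 libraries. In fibroblasts the OGN libraries lie apart from vehicle, lower for Ldhb and Pfkm and higher for P4ha2.

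Other genes of these pathways were taken from lists made by pathway, also with earlier results of these data known. Of 28 further HIF-1 targets tested, 7 rose and none fell in the epithelial libraries, and 10 rose and 1 fell in those of fibroblasts, with median log2 fold changes of 0.19 and 0.50. Of all genes tested, 1.48% were called higher in Epcam+ cells and 2.7% in fibroblasts. Ak4, a mitochondrial adenylate kinase, rose by 1.14 ± 0.15 (edgeR adjusted p = 4.73e-05) and 1.14 ± 0.11 (edgeR adjusted p = 1.01e-05). Lox, which crosslinks collagen, rose by 0.72 ± 0.12 (edgeR adjusted p = 0.000632) and 1.46 ± 0.13 (edgeR adjusted p = 4.75e-06). Fam162a (0.54 ± 0.13 and 1.31 ± 0.18), the lysyl hydroxylases Plod1 (0.56 ± 0.13 and 0.69 ± 0.10) and Plod2 (0.62 ± 0.14 and 1.02 ± 0.09), the histone demethylase Kdm4b (0.54 ± 0.12 and 0.47 ± 0.08) and the cytokine Mif (0.43 ± 0.09 and 0.72 ± 0.15) were called in both. In fibroblasts, Stc1, for the secreted stanniocalcin 1, rose by 2.93 ± 0.22 (edgeR adjusted p = 8.86e-07), Jmjd6 by 0.79 ± 0.16 (edgeR adjusted p = 0.00707) and the lipid droplet gene Plin2 by 0.56 ± 0.11 (edgeR adjusted p = 0.00608), and Zfp395 fell, at -0.48 ± 0.10 (edgeR adjusted p = 0.0111).

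Of 11 genes of HIF subunits and their control, 1 was called in each population, beside 2.7% of all genes in Epcam+ cells and 4.56% in fibroblasts. It was Epas1, which encodes HIF-2 alpha, at -0.50 ± 0.08 (edgeR adjusted p = 0.000416) in Epcam+ cells and at 0.77 ± 0.16 (edgeR adjusted p = 0.00707) in fibroblasts, opposite in sign, with a difference between populations of 1.27 ± 0.17 (edgeR adjusted p = 7.19e-05). Of 10 other glycolytic isoenzymes and glucose transporters, Eno1b rose by 0.64 ± 0.15 (edgeR adjusted p = 0.0198) in Epcam+ cells and 0.64 ± 0.14 (edgeR adjusted p = 0.0105) in fibroblasts, and Bsg, the chaperone of lactate carriers, rose by 0.63 ± 0.15 (edgeR adjusted p = 0.0196) in fibroblasts. Of 12 genes of gluconeogenesis and glycogen, Pgm1 rose in both, by 0.39 ± 0.08 (edgeR adjusted p = 0.0088) and 0.95 ± 0.14 (edgeR adjusted p = 0.000418), and glycogen synthase Gys1 and branching enzyme Gbe1 rose in fibroblasts, by 1.14 ± 0.10 (edgeR adjusted p = 4.75e-06) and 0.88 ± 0.10 (edgeR adjusted p = 4.81e-05). In the pentose phosphate list of 10, Prps2 fell in Epcam+ cells, at -0.44 ± 0.10 (edgeR adjusted p = 0.0116), and no gene was called in fibroblasts. Among 6 early stress-response genes, Egr1 was called in both, at -1.24 ± 0.15 (edgeR adjusted p = 1.81e-05) in Epcam+ cells, lower in 4 of 4 mice, and -1.13 ± 0.24 (edgeR adjusted p = 0.00926) in fibroblasts, lower in 3 of 4. No gene was called among 12 for the entry of pyruvate into mitochondria, with medians of 0.01 in Epcam+ cells and 0.00 in fibroblasts.

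With EVs, 25 of 37 genes were called in fibroblasts, each higher, beside 36% of all genes in either direction and 19.8% called higher. The smallest p values were those of Pgk1, Pfkl and Eno1. Pgk1 was at 1073, 1375, 1314 and 1506 CPM, with 0.70 ± 0.09 (edgeR adjusted p = 0.00129), and Pfkl at 321, 433, 418 and 454 CPM, with 0.77 ± 0.11 (edgeR adjusted p = 0.00149). Eno1 was at 856, 1143, 1024 and 1203 CPM, with 0.65 ± 0.10 (edgeR adjusted p = 0.00199). In each of these 3 genes, all EV libraries were above the vehicle libraries. As the genes were picked by their p, this order adds nothing to their calls. The share of all genes with this order is not given here. By class, 13 of 16 enzymes and 9 of 15 HIF-1 targets were called. The enzyme median exceeded the HIF-1 target median in 4 of 4 mice, by 0.05, 0.33, 0.02 and 0.38, and the margin was larger in mice 2 and 4, whose libraries also had the steepest length trends. Transcripts of the enzymes had a median length of 2370.5 nt, those of the HIF-1 targets 3203.0 nt and those of all genes 3457.0 nt. When the trend with length was taken out, 22 genes were called and the medians fell from 0.56 to 0.27 for the enzymes and from 0.33 to 0.14 for the HIF-1 targets. No gene passed without mouse 2, and 15 did without mouse 4, 15 without the EV-treated libraries of mice 2 and 4, and 7 with EV and vehicle libraries alone in the model.

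Hif1a was at 325, 258, 279 and 201 CPM in EV-treated fibroblasts, with -0.02 ± 0.13, which did not pass, and with the length trend taken out it gave 0.34 (edgeR adjusted p = 0.0113). Ero1a, chosen after its values were seen, was at 249, 181, 215 and 152 CPM, with 0.01 ± 0.13, which did not pass. Slc2a1 was at 221, 244, 221 and 274 CPM, with 0.36 ± 0.09 (edgeR adjusted p = 0.00966). EV and OGN comparisons share the vehicle libraries. In Epcam+ cells, 5 genes were called with EVs, each higher, beside 0.888% of all genes in either direction and 0.538% called higher. Vegfa was at 136, 138, 138 and 148 CPM, with 0.47 ± 0.09 (edgeR adjusted p = 0.0138). Eno2 was at 77.4, 82.0, 82.8 and 87.2 CPM, with 0.59 ± 0.12 (edgeR adjusted p = 0.0208), and Pgk1 at 831, 869.7, 769.9 and 791 CPM, with 0.30 ± 0.07 (edgeR adjusted p = 0.0314). Of the other two, P4ha1 gave 0.34 ± 0.08 and P4ha2 0.37 ± 0.08. None of these passed without mouse in the model or on leaving out mouse 1, 2 or 3. In the same libraries, the fibroblast marker sum was 3162 to 3745 CPM with EVs, above the 2239 to 3111 CPM of vehicle, with 4 of 9 markers called higher, and its part in the result was not tested. Of the other genes of the pathway, Plod1 and Plod2 rose and Epas1 fell with EVs in Epcam+ cells. In fibroblasts, 11 of 28 further HIF-1 targets rose and 2 fell, beside 19.8% of all genes called higher there. Of the 11 HIF subunit and control genes, 7 were called in EV-treated fibroblasts, beside 36% of all genes in either direction. Epas1 (-0.49 ± 0.17, edgeR adjusted p = 0.0375) and the HIF beta subunit genes Arnt (-0.43 ± 0.16, edgeR adjusted p = 0.0467) and Arnt2 (-0.87 ± 0.21, edgeR adjusted p = 0.00903) fell, and the prolyl hydroxylase gene Egln2 (0.85 ± 0.20) and the ubiquitin ligase subunit genes Rbx1 (0.87 ± 0.18), Elob (0.81 ± 0.17) and Eloc (0.67 ± 0.16) rose, in the libraries with the length trend. The EV response differed between populations for 12 genes, beside 23.8% of all genes, 9 enzymes being higher in fibroblasts. Eno1 (0.53 ± 0.11, edgeR adjusted p = 0.00548), Higd1a (0.99 ± 0.22, edgeR adjusted p = 0.0055) and Pkm (0.50 ± 0.13, edgeR adjusted p = 0.0103) had the smallest p, and the number called was 0 on leaving out mouse 2 and 2 on leaving out mouse 4.

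SFs gave no called gene among the 37 in either population, beside 0.23% of all genes in Epcam+ cells and 0.0599% in fibroblasts with edgeR. At an unadjusted p under 0.05, 10 of the 37 passed in Epcam+ cells (7.79% of all genes) and 21 in fibroblasts (5.31%), and DESeq2 called 0 and 3. All 4 SF libraries were above all 4 vehicle libraries for 22 of 37 genes there (4.63% of all genes), and for 8 in Epcam+ cells (2.27%). P4ha2 in fibroblasts was at 117, 125, 103 and 113 CPM, with 0.41 ± 0.09 (edgeR adjusted p = 0.332), Pgam1 at 267, 292, 277 and 265 CPM, with 0.42 ± 0.10 (edgeR adjusted p = 0.389), and Vegfa at 319.9, 291, 289 and 276 CPM, with 0.43 ± 0.11 (edgeR adjusted p = 0.487). In Epcam+ cells, Eno2 gave 0.47 ± 0.13 (edgeR adjusted p = 0.237), Bnip3 0.40 ± 0.11 (edgeR adjusted p = 0.275) and Vegfa 0.32 ± 0.09 (edgeR adjusted p = 0.317). The fibroblast count was 17 with SF and vehicle libraries alone, 15 without all EV-treated libraries, and 11 without those of mice 2 and 4. No gene differed between populations in its SF response (0% of all genes with edgeR), with 7 of the 37 at an unadjusted p under 0.05 (5% of all genes), the smallest p being those of Ddit4 (0.75 ± 0.21), Pgam1 (0.44 ± 0.13) and Higd1a (0.49 ± 0.22).

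The populations also differed before any treatment. In vehicle libraries, 31 of 37 genes were called between CCL206 fibroblasts and Epcam+ cells, 20 higher and 11 lower in fibroblasts, beside 71.4% of all genes, 35.8% higher and 35.6% lower. Eno2 was at 44.8, 40.8, 56.6 and 78.4 CPM in Epcam+ cells and 267, 279, 291 and 307 CPM in fibroblasts, a difference of 2.41 ± 0.12 (edgeR adjusted p = 1.98e-08). Pfkm (1.55 ± 0.10, edgeR adjusted p = 1.21e-07) and P4ha1 (1.34 ± 0.08, edgeR adjusted p = 9.98e-08) were also much higher in fibroblasts. Higher in Epcam+ cells, with a log2 difference of fibroblasts minus Epcam+ cells below 0, were Slc16a3 (-2.07 ± 0.30, edgeR adjusted p = 9.97e-05), Ldha (-1.40 ± 0.07, edgeR adjusted p = 1.77e-08) and Higd1a (-1.03 ± 0.12, edgeR adjusted p = 1.47e-05), and since AT2 markers were detected in fibroblast libraries, these are differences of the sorted samples. Of the enzymes, 6 were higher and 5 lower in fibroblasts, and of the HIF-1 targets 10 were higher and 4 lower. The median of the enzymes minus that of the HIF-1 targets was -0.48, -0.7, -0.53 and -0.25 in mice 1 to 4, below 0 in all 4 mice (mean -0.49 ± 0.19, SD), so that, set against the enzymes, the HIF-1 targets were higher in fibroblasts. Per kilobase of transcript, the most abundant of the 37 in vehicle Epcam+ cells were Gapdh, at 1624 ± 83.1 CPM per kb (SD, n = 4), Ldha, at 1376 ± 105, and Pkm, at 1154 ± 54.0. In vehicle fibroblasts they were Gapdh, at 947 ± 16.3, Aldoa, at 801 ± 25.5, and Pkm, at 765 ± 20.9, and Slc16a3 was lowest in both, at 3.02 ± 1.32 and 0.723 ± 0.319.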

How the data were processed

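The authors deposited raw counts per gene for 32 libraries in 1 table of 11818 genes, in which every gene had at least 1 count in every library. Per the labels and the study's methods, reads were trimmed with Trimmomatic 0.30 and analyzed with DESeq2 1.34.0. The labels name GRCm39 and the methods GRCm38 as the genome, and the aligner and counting program are not given in the sources used here. Genes were filtered with filterByExpr and scaled by TMM, and each population's 16 libraries were fitted with mouse and treatment by edgeR 4.0.16 (quasi-likelihood F test, R 4.3.3), with Benjamini-Hochberg adjustment over all genes. The SE was taken from the log2 fold change and the root of its F statistic. Replicate numbers name mice, which pair the libraries. Residuals of the same mouse correlated at means of 0.0872 to 0.224, with a lowest single value of -0.0547 in EV-treated fibroblasts, and those of different mice at -0.07 to -0.0296. As residuals were centred within each group, the means of different mice nearly follow from those of the same mouse and are not independent support for the pairing. Differences between populations were fitted over 32 libraries (interaction) or 8 vehicle libraries. CPM used TMM sizes of all 32 libraries, and single-mouse differences a prior count of 2. Lengths were those of canonical transcripts of GENCODE, found for 98.9% of genes, in place of RefSeq lengths. Alternatives were DESeq2 1.42.0, RLE scaling, other filters, no mouse term, fewer libraries, single mice left out and removal of the length trend, and scripts were tested on simulated data.

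The 37 genes, the classes and the lists were chosen with earlier results of these data known. Genes named with values in every library were those called with OGN in either population, besides Hif1a, Gapdh, Ldha and Slc2a1. For other comparisons the 3 genes with the smallest p were named, as well as the 3 largest differences in each direction between populations. Counts of other genes are by list. Pfkfb3 with OGN in fibroblasts and Ero1a with EVs were given with library values after these were seen. Pfkm, Ldhb, Pfkfb3, Adm, Egln3, Kdm3a and Ddit4 were not called with OGN, and are named to account for all 37.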

Additional observations from a re-analysis of the deposited data

Results flagged for a closer look

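In groups of 4 libraries, 120 groups were tested for a library far from the others (the gap to the nearest library over the whole range, against Dixon's critical value), and 7 exceeded it, where chance alone would give about 1 in 20. In OGN-treated Epcam+ cells of mouse 4, Pfkl was at 424 CPM and Pkm at 4019 CPM, both above the other 3 mice, in the Epcam+ library with the lowest correlation of level with transcript length (-0.288), whose part in these values was not tested. In vehicle Epcam+ cells, Pgk1 of mouse 1 was at 668 CPM and Pgam1 of mouse 2 at 215.5 CPM, both above. In OGN-treated fibroblasts, Tpi1 of mouse 3 was at 1078 CPM and Slc2a1 of mouse 1 at 435 CPM, both below, and Ndrg1 of mouse 1 in vehicle fibroblasts was at 78.7 CPM, also below.

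The OGN response differed between populations (interaction over 32 libraries, edgeR, adjusted p under 0.05) for Gpi1 by 0.44, Pgam1 by 0.58, Slc2a1 by 0.69, Slc16a1 by 0.76, Egln1 by 0.68 and P4ha2 by 0.60 on the log2 scale, each larger in fibroblasts. The EV response differed for Pfkl by 0.40, Aldoa by 0.47, Tpi1 by 0.48, Gapdh by 0.44, Pgk1 by 0.38, Eno1 by 0.53, Pkm by 0.50, Ldha by 0.57, Ldhb by 0.51, Higd1a by 0.99 and Egln1 by 0.47, larger in fibroblasts, and for Eno2 by -0.40, lower in fibroblasts. The latter set includes the EV-treated fibroblast libraries, whose values fell with transcript length. It was empty without those of mice 2 and 4. That fit also had fewer EV-treated libraries, and the part of the length trend was not tested by it.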

How the results depend on the processing

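The count of genes called with OGN was 19 in Epcam+ cells, 12 to 17 on leaving out 1 mouse (12 without mouse 1) and 15 to 23 under the other alternatives. In fibroblasts it was 28, 21 to 26 and 25 to 31. Of these calls, 11 of 19 and 21 of 28 passed under every alternative run. The median of the HIF-1 targets in fibroblasts was 0.69 without mouse 1, and 0.56 to 0.69 on leaving out single mice. Higd1a with OGN in Epcam+ cells turned to -0.01 without mouse 1 and to -0.01 without mouse 2, over a range of -0.01 to 0.16 on leaving out single mice. No pairing (no replicate block by mouse) gave 16 OGN calls in Epcam+ cells and 25 in fibroblasts, and 0 EV calls in Epcam+ cells. EVs in Epcam+ cells gave 5 calls, 10 with DESeq2, 2 with EV and vehicle libraries alone, and 0 to 6 on leaving out 1 mouse. EVs in fibroblasts gave 25, 7 with those libraries alone, 15 without the EV-treated libraries of mice 2 and 4 (an alternative chosen after seeing the data), and 0 to 22 on leaving out 1 mouse. SFs gave 0 in Epcam+ cells (0 to 1), and in fibroblasts 3 with DESeq2, 17 with SF and vehicle libraries alone, 15 without EV-treated libraries and 11 without those of mice 2 and 4. The OGN difference between populations gave 6, 11 with the length trend taken out, 12 without EV-treated libraries, 12 without those of mice 2 and 4, and 0 to 3 on leaving out 1 mouse. That of EVs gave 12, 2 with EV and vehicle libraries alone, 0 without those of mice 2 and 4, and 0 to 13. The cause was not tested. The population difference in vehicle stayed between 28 and 32 calls, and scaling by RLE ended no OGN call.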
